A study of Homo sapiens with 21 samples.

Results

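Asparagine, alanine and proline synthesis and the mitochondrial branch of phosphoenolpyruvate formation were followed through 9 genes, ASNS, GPT2, GOT1, GOT2, PCK2, PYCR1, ALDH18A1, GLUD1 and PC. They were taken by gene name as enzymes of non-essential amino acid synthesis and anaplerosis, from 58735 genes in the count table, and each name matched a single row. The RNA came from cultures labelled HepG2, the name of a human hepatocellular tumour line, which had been given coumarin, a plant-derived fragrance compound, for 6 h and were sequenced in bulk. Groups of 3 libraries received 0.001, 0.01, 0.1, 1, 10 or 100 µM, and a further 3 were untreated (0 µM). All 21 cultures spent those 6 h in serum-free DMEM, in which the coumarin was also dissolved, so no separate solvent was present. The design text calls the libraries of a group biological replicates; p-values measure the spread between these samples.

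These enzymes move nitrogen and carbon between glutamate, pyruvate and oxaloacetate. Aminotransferases exchange an amino group for a keto group, and their reactions run in either direction. Proline is built from glutamate, and asparagine from aspartate with glutamine as the nitrogen donor. Pyruvate carboxylase refills oxaloacetate in mitochondria, and the mitochondrial carboxykinase drains it towards phosphoenolpyruvate. When amino acids run short or the endoplasmic reticulum is stressed, the transcription factor ATF4 is known to raise a subset of such genes through composite sites called CARE, which join a C/EBP and an ATF half-site.

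ASNS, GPT2, PCK2 and PYCR1 were higher at 100 µM than in untreated cells, while GOT1, GOT2, ALDH18A1, GLUD1 and PC were not called in either direction. That made 4 of 9 called, all higher, where 8.47% of the 16196 genes tested were called and 3.66% were higher. The 9 were chosen with earlier results of these data known, so these shares are description only. The changes were 2.69-fold for ASNS, 1.83-fold for PCK2, 1.63-fold for GPT2 and 1.14-fold for PYCR1. At 10 µM, only GPT2 among the 9 was called, at 1.18-fold, where 0.327% of the genes tested were called, and at the 4 lower doses 0 of 9 were, where at most 0.00617% of all genes were.

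Promoter sequence is shown for ASNS and GOT1, because these were the members whose window held the CARE core, TGATGNAA, on either strand. Windows ran from 250 bases before to 50 bases after a RefSeq start (GRCh38.p14), and 7 members had at least 1 window, 10 in all; GPT2 and PYCR1 had none in the table. The core was found in 2 of those 10 windows, and in 3.62% of all 35116 windows. In ASNS it begins at position -68 from the start, where -1 is the base before it, and reads TGATGAAA. In GOT1 it lies on the opposite strand, its first printed base is at position -198, and it reads TTGCATCA as printed. The cAMP response element TGACGTCA was in 0 of the 10 windows, against 1.85% of all windows, and CCAAT was in 4, in GOT1, PC and PCK2, against 34.6%; a CCAAT match on the opposite strand ends just before the core in GOT1 and does not overlap it. Capitals mark the core in chr7:97872359-97872658 (ASNS, minus strand) and chr10:99430575-99430874 (GOT1, minus strand), both printed 5′ to 3′ along the gene.
ASNS: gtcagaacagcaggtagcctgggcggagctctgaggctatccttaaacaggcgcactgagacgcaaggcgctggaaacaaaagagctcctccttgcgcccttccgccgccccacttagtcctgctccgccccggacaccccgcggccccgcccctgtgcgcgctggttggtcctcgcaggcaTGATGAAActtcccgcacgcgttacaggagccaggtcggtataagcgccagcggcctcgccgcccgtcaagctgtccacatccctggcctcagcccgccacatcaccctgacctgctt
GOT1: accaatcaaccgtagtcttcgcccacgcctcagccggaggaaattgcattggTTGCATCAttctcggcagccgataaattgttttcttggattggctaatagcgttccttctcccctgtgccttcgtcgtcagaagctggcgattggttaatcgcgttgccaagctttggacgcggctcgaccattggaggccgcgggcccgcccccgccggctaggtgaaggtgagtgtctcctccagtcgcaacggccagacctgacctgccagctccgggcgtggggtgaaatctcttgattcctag
Of these 2 genes, ASNS was called higher at 100 µM and GOT1 was not, and a match to 8 letters describes the window only.

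Total counts per library were 27984517 to 43704155, mitochondrial transcripts took 5.61% to 6.63% of them, and 16196 genes had enough counts to be tested, all 9 members included. The label HepG2 was checked against 24 hepatocyte genes: 6 had no read in any library, ALB among them, and 2 averaged at least 1 CPM (counts per 1000000), the urea cycle enzyme gene CPS1 at 2860 and VTN at 1.73. AFP had 15 reads over the 21 libraries. The sum of the hepatocyte list, nearly all of it CPS1, was 2820 to 2990 CPM at 100 µM and 2800 to 2940 CPM in untreated cells. The results thus describe cells that carry this label without most of these transcripts. Summed over 10 genes of biliary and other simple epithelia, the level was 4060 to 4210 CPM at 100 µM, against 4300 to 4570 CPM in untreated cells. Of these 10, EPCAM had 0 reads, KRT19 had 1, and 4 averaged at least 1 CPM. Nearly all of the sum was the keratin genes KRT8, KRT7 and KRT18, which averaged 2320, 1210 and 898 CPM over the 21 libraries. For 13 mesenchymal genes, of which 8 averaged at least 1 CPM and COL1A2 had 1 read, the sums were 1680 to 1750 at 100 µM and 1720 to 1790 in untreated cells. For 8 blood and endothelial genes they were 0.803 to 1.00 CPM at 100 µM and 1.25 to 1.59 CPM in untreated cells. Of these 8, 2 had no read and 0 averaged at least 1 CPM. Most of their sum over the 21 libraries was CDH5, which averaged 0.887 CPM. The part of these shifts in the changes below was not tested, and in bulk RNA fewer cells of a type and less RNA per cell cannot be told apart.

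Levels were first set against each other per length, as the authors' FPKM (fragments per kilobase of gene length and per 1000000 fragments). At 100 µM the order was GOT2 at 82.6 ± 0.981, PYCR1 at 61.4 ± 1.34, ALDH18A1 at 45.0 ± 1.60, GLUD1 at 35.3 ± 0.965, GOT1 at 26.0 ± 1.11, PC at 17.6 ± 0.610, PCK2 at 15.9 ± 0.585, GPT2 at 11.5 ± 0.260 and ASNS at 1.31 ± 0.007 FPKM (SD, n = 3 each). In untreated cells it was GOT2 at 84.4 ± 2.52, PYCR1 at 54.0 ± 2.49, ALDH18A1 at 46.3 ± 1.22, GLUD1 at 38.1 ± 1.24, GOT1 at 24.9 ± 0.688, PC at 17.4 ± 0.505, PCK2 at 8.71 ± 0.292, GPT2 at 7.12 ± 0.220 and ASNS at 0.492 ± 0.136 FPKM (SD, n = 3 each). The order was the same in both groups, and no neighbours in it overlapped in their 3 libraries, although PCK2 came close below PC at 100 µM. The mitochondrial aspartate aminotransferase and the proline enzymes were thus the most abundant transcripts of the 9, and ASNS, the gene with the greatest fold change, was the scarcest at either dose.

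**Figure D1:**
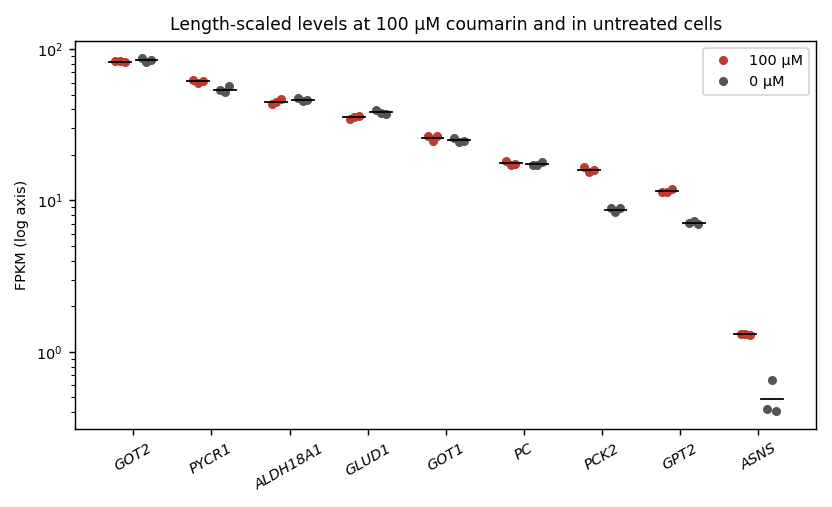
FPKM of the 9 genes on a log axis at 100 µM coumarin and in untreated cells, in the order of the untreated mean; points are the 3 libraries of a group and bars their mean. ASNS lies lowest at both doses, with means of 1.31 FPKM at 100 µM and 0.492 FPKM in untreated cells, and the order of the 9 genes is the same in both.

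Comparisons of a gene between doses below use CPM scaled by TMM (a correction for differences in library composition) and edgeR's quasi-likelihood test over all 21 libraries, with Benjamini-Hochberg adjustment over the 16196 genes and a threshold of 0.05. At 100 µM against 0 µM, 8.47% of the genes tested were called, 3.66% higher and 4.8% lower, and the members stood at 4 of 9 higher and 0 lower. Their median log2 fold change was 0.07, against 0.00 over all genes tested. All 3 libraries at 100 µM lay above all untreated ones in 4 members and below them in 1, GLUD1, as in 13.1% and 13.9% of the genes tested. Over all genes, 1371 were called, and 800, 766, 705 and 884 without untreated replicates 1 and 2 and 100 µM replicates 1 and 3 in turn, with 3 or 4 members called whichever of the 21 libraries was left out.

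ASNS, asparagine synthetase, makes asparagine from aspartate and glutamine at the cost of ATP. It lies on chromosome 7 from 97852118 to 97872542 on the minus strand (GRCh38). ASNS had 5.67, 5.74 and 5.67 CPM in the 3 libraries at 100 µM, against 1.82, 2.84 and 1.77 CPM in untreated cells. All 3 treated libraries were above every other library, the highest of the 15 at 0.001 to 10 µM being 2.91 CPM, and replicate 2 stood highest among the untreated. These values rest on 172 to 202 reads a library at 100 µM and 60 to 81 in untreated cells. The log2 fold change was 1.43 (SE 0.17, 95% interval 1.09 to 1.77, edgeR adjusted p = 1.01e-06). On log2(FPKM + 1), which understates the change of so scarce a transcript, limma gave 0.63 and the call held.

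ASNS means over the doses in between were 1.96, 1.91, 2.02, 2.44 and 2.51 CPM at 0.001, 0.01, 0.1, 1 and 10 µM, all with libraries overlapping those of untreated cells. At 10 µM against 0 µM its log2 fold change was 0.25, with a 95% interval of -0.13 to 0.62 (edgeR adjusted p = 0.61). The step between the top doses, 100 against 10 µM, was 1.18 (SE 0.16, edgeR adjusted p = 2.52e-05). Within the ASNS locus, the processed pseudogene AC005326.1 on the other strand, which shares no exon base with ASNS, had 46 reads at 100 µM and 9 in untreated cells, summed over 3 libraries each. AC079781.5, on the same strand, shares 44.6% of the exon bases of ASNS and had 11 reads in all 21 libraries. Whether counting used strand is not given in the sources used here, so counts in shared bases are uncertain.

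ASNSD1, which encodes a protein with an asparagine synthetase domain, was not called. It had 61.9 ± 2.77 CPM at 100 µM and 63.7 ± 2.79 CPM in untreated cells (SD, n = 3 each), with a log2 fold change of -0.04 and a 95% interval of -0.14 to 0.06 (edgeR adjusted p = 0.67).

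GPT2, the mitochondrial alanine aminotransferase, converts pyruvate and glutamate to alanine and alpha-ketoglutarate. Its gene lies on chromosome 16 from 46884378 to 46931297 (plus strand), with no other annotated gene overlapping. It had 70.7, 71.0 and 73.6 CPM at 100 µM, against 43.5, 46.0 and 43.0 CPM in untreated cells. The log2 fold change was 0.70 (SE 0.05, edgeR adjusted p = 4.3e-11), and all 3 libraries at 100 µM were above the other 18. ASNS, GPT2 and PCK2 were the 3 of 9 members with this separation, which 2.41% of the genes tested had; 0 members had all 3 below the other 18, as 3.31% of the genes did.

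GPT2 alone was called at 10 µM, where 0.327% of the genes tested were called, 0.241% higher and 0.0864% lower. It had 51.2, 50.6 and 54.3 CPM at 10 µM, against the untreated values above, with no overlap. The log2 fold change was 0.24 (SE 0.05, 95% interval 0.14 to 0.34, edgeR adjusted p = 0.024). The call ended without any 1 of the 3 untreated libraries (adjusted p = 0.0816, 0.0561 and 0.0837 for replicates 1, 2 and 3), without 10 µM replicate 3 (adjusted p = 0.201), and with limma on the FPKM values (adjusted p = 0.0778). From 0.001 to 1 µM the GPT2 means were 45.2, 44.3, 44.1 and 45.8 CPM, with libraries overlapping the untreated ones.

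GPT, the cytosolic alanine aminotransferase, was scarce, with 1.21 ± 0.184 CPM at 100 µM and 1.07 ± 0.145 CPM in untreated cells (SD, n = 3 each). Its log2 fold change was 0.17 with a 95% interval of -0.28 to 0.61 (edgeR adjusted p = 0.70), an interval too wide to tell a fall from a rise of moderate size.

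PCK2, the mitochondrial phosphoenolpyruvate carboxykinase, turns oxaloacetate into phosphoenolpyruvate. It lies on chromosome 14 from 24094053 to 24110598 (plus strand). PCK2 had 67.6, 63.1 and 64.8 CPM at 100 µM, against 36.1, 34.5 and 36.3 CPM in untreated cells. Every library at 100 µM was above the other 18, whose highest was 44.8 CPM, and the log2 fold change was 0.87 (SE 0.05, edgeR adjusted p = 2.85e-12). By p-value it ranked 7 among the 16196 genes, and GPT2 ranked 9, although their folds ranked 167 and 323. The overlapping gene NRL, on the other strand, shares no exon base with PCK2 and had 98 reads at 100 µM and 78 in untreated cells, summed over 3 libraries each.

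Through the lower doses PCK2 averaged 36.3, 37.4, 37.8, 37.7 and 41.4 CPM at 0.001, 0.01, 0.1, 1 and 10 µM. Its libraries had 39.7, 37.1 and 36.6 CPM at 0.1 µM and 36.75, 36.75 and 39.5 CPM at 1 µM, and it was not called at either dose. At 10 µM the PCK2 libraries, 44.8, 41.3 and 38.3 CPM, were all above the untreated ones. That was so for 8.78% of the genes tested, while 7.9% were all lower. Among the 9 members, GPT2 and PYCR1 were all higher at 10 µM too, and 0 were all lower. The log2 fold change of PCK2 at 10 µM was 0.22 with a 95% interval of 0.11 to 0.33, and it was not called (edgeR adjusted p = 0.071). It was called with DESeq2 (adjusted p = 0.0288), with no filter on low counts (adjusted p = 0.0122) and without 0.1 µM replicate 1 (adjusted p = 0.0418). PCK1, the cytosolic carboxykinase of liver, had 44 reads in all 21 libraries and was not tested.

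**Figure D2:**
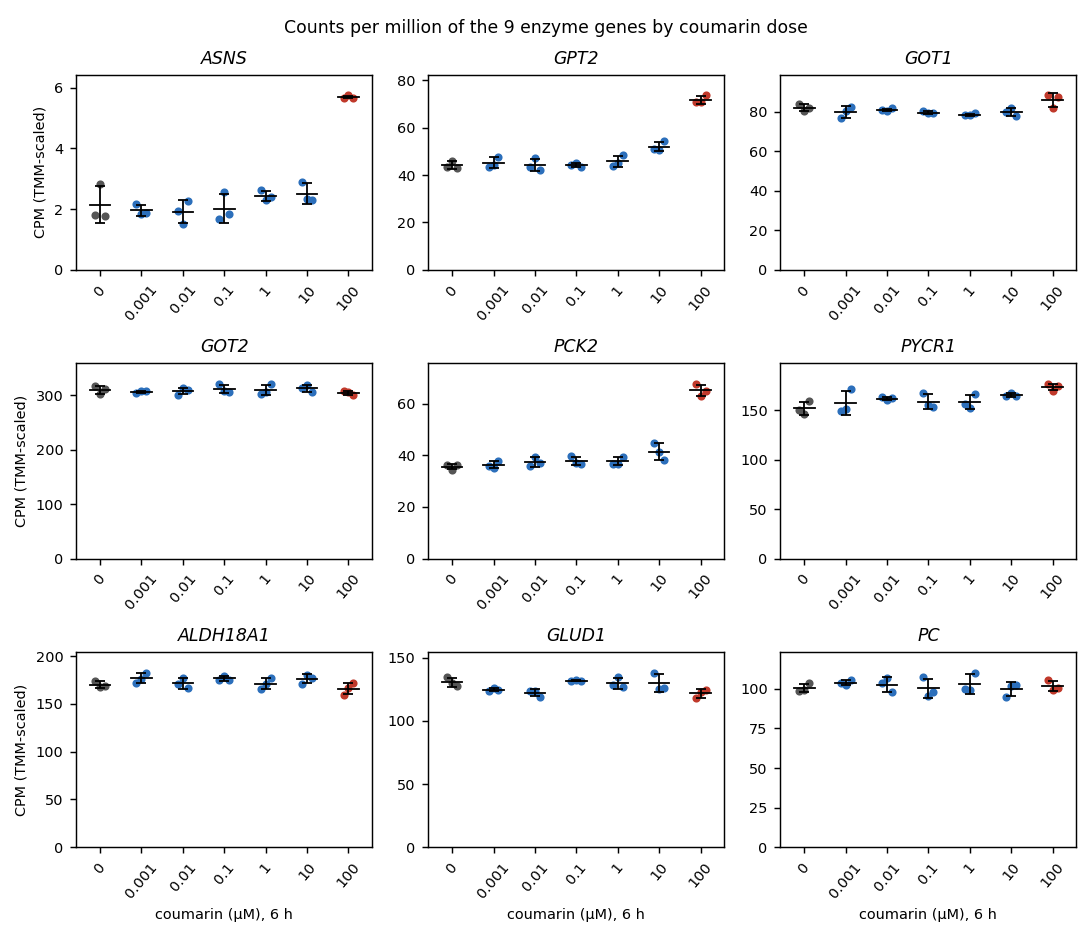
TMM-scaled CPM of each of the 9 genes at the 7 coumarin doses; points are libraries, horizontal bars the mean of 3 and error bars the SD, with each vertical axis starting at 0. ASNS, GPT2 and PCK2 stand above all lower doses at 100 µM, where their means are 5.70, 71.8 and 65.2 CPM.

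PYCR1, the mitochondrial pyrroline-5-carboxylate reductase, carries out the last step of proline synthesis. It lies on chromosome 17 from 81932384 to 81942412 (minus strand). PYCR1 had 176, 170 and 175 CPM at 100 µM, against 150, 146 and 159 CPM in untreated cells, without overlap. Across all doses the separation was incomplete, since 0.001 µM replicate 3 had 171 CPM. The log2 fold change was 0.19 (SE 0.05, 95% interval 0.10 to 0.28, edgeR adjusted p = 0.00888), and without untreated replicate 2 the call ended (0.16, adjusted p = 0.0609). The step of PYCR1 from 10 to 100 µM was not called (log2 fold change 0.07, edgeR adjusted p = 0.44), and at 10 µM it had 165 ± 1.93 CPM (SD, n = 3).

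ALDH18A1, which makes the proline precursor pyrroline-5-carboxylate from glutamate, was not called at any dose. It lies on chromosome 10 from 95605929 to 95656706 (minus strand). It had 160, 166 and 172 CPM at 100 µM, against 174, 167 and 169 CPM in untreated cells, which overlap. Its log2 fold change was -0.04, with a 95% interval of -0.11 to 0.04 (edgeR adjusted p = 0.62).

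PYCR3, the cytosolic pyrroline-5-carboxylate reductase, was not called. It had 23.7 ± 1.99 CPM at 100 µM and 24.2 ± 1.19 CPM in untreated cells (SD, n = 3 each), with a log2 fold change of -0.03 (edgeR adjusted p = 0.84).

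GOT1 and GOT2, the cytosolic and mitochondrial aspartate aminotransferases, exchange aspartate and alpha-ketoglutarate for oxaloacetate and glutamate and serve the malate-aspartate shuttle. GOT1 lies on chromosome 10 from 99396870 to 99431569 and GOT2 on chromosome 16 from 58707131 to 58734357, both on the minus strand. GOT1 had 88.1, 81.8 and 87.6 CPM at 100 µM, against 83.8, 80.3 and 81.6 CPM in untreated cells, and the groups overlap. Its log2 fold change was 0.07 with a 95% interval of -0.01 to 0.15 (edgeR adjusted p = 0.30). GOT2 had 307, 306 and 300.4 CPM at 100 µM, against 317, 302 and 311 CPM in untreated cells. The log2 fold change of GOT2 was -0.03 with a 95% interval of -0.10 to 0.04 (edgeR adjusted p = 0.68), and its dose means stayed between 304 and 312 CPM.

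The ratio of GOT2 to GOT1, in counts per kilobase, was 3.11, 3.34 and 3.07 at 100 µM, against 3.38, 3.37 and 3.41 in untreated cells. All 3 treated libraries were below the untreated ones (2-sided exact permutation p = 0.1, the smallest possible), but 100 µM replicate 2 lay within the range of the other 18 libraries, 3.33 to 3.62. The GOT1 exons share 19.3% of their bases with AL391684.1 on the other strand, which had 875 reads in all 21 libraries, or 1.48% of the GOT1 reads.

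GLUD1, glutamate dehydrogenase, interconverts glutamate and alpha-ketoglutarate with release of ammonia. It lies on chromosome 10 from 87050486 to 87094866 (minus strand). GLUD1 had 118, 123 and 125 CPM at 100 µM, against 135, 130 and 128 CPM in untreated cells, all lower without overlap. Its log2 fold change was -0.10 with a 95% interval of -0.18 to -0.02 and was not called (edgeR adjusted p = 0.10). Values as low were seen at 0.01 µM, at 124, 124 and 119 CPM, and at 0.001 µM they were 124, 126 and 124 CPM. GLUD1 was not called at either dose (edgeR adjusted p = 0.54 at 0.01 µM and 0.61 at 0.001 µM). GLUD1 had no slope over dose (0.00 per 10-fold step, edgeR adjusted p = 0.93).

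Counts of GLUD1 are uncertain in part. Its exons share 13.2% of their bases with SHLD2 on the other strand, an expressed gene with 43126 reads in all, and 5 GLUD1 pseudogenes held 1489 reads. GLUD2, a near-identical copy on the X chromosome, had 0.548 ± 0.147 CPM at 100 µM and 0.672 ± 0.110 CPM in untreated cells (SD, n = 3 each; edgeR adjusted p = 0.61).

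PC, pyruvate carboxylase, makes oxaloacetate from pyruvate. It lies on chromosome 11 from 66848233 to 66958376 (minus strand). PC had 106, 99.6 and 100.3 CPM at 100 µM, against 98.8, 99.0 and 104 CPM in untreated cells. The groups overlap, and the log2 fold change was 0.02 with a 95% interval of -0.08 to 0.12 (edgeR adjusted p = 0.87). LRFN4, an expressed gene on the other strand with 65105 reads, or 87.6% of the PC reads, shares 10.5% of the PC exon bases. Counts of PC, and the ratio of PCK2 to PC below, are therefore uncertain in part.

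The ratio of PCK2 to PC, enzymes that act on either side of mitochondrial oxaloacetate, was 0.905, 0.897 and 0.915 at 100 µM, against 0.517, 0.492 and 0.494 in untreated cells, in counts per kilobase. The difference was 0.85 on the log2 scale (2-sided exact permutation p = 0.1, the smallest possible with 3 against 3). From 0.001 to 1 µM the ratio stayed between 0.487 and 0.548, and at 10 µM it was 0.669, 0.573 and 0.527. The libraries at 10 µM were above every untreated one, and so were those at 0.1 µM, with 0.524, 0.548 and 0.528. Those at 1 µM, with 0.521, 0.523 and 0.508, were not all above. How often ratios of other genes separate in this way was not counted.

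**Figure D3:**
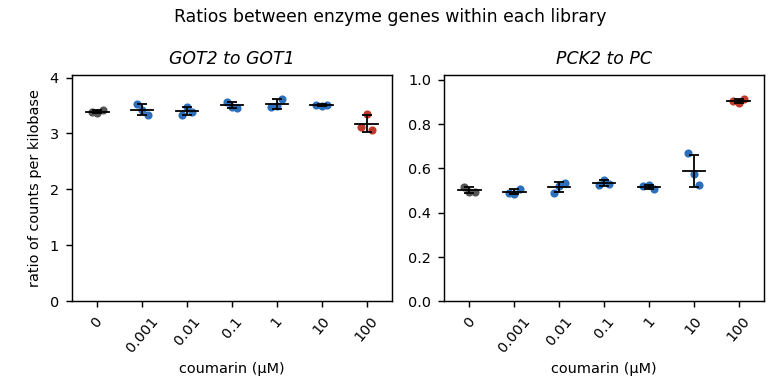
Within-library ratios of counts per kilobase by coumarin dose for GOT2 to GOT1 and PCK2 to PC; points are libraries, with the mean and SD of 3. The PCK2 to PC ratio averages 0.906 at 100 µM and 0.501 in untreated cells, and the GOT2 to GOT1 ratio averages 3.18 at 100 µM and 3.39 in untreated cells.

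Set side by side, the changes at 100 and at 10 µM share the untreated libraries. ASNS had log2 fold changes of 1.43 and 0.25, PCK2 of 0.87 and 0.22, GPT2 of 0.70 and 0.24, and PYCR1 of 0.19 and 0.12 at 100 and 10 µM. Between 100 and 10 µM, without the untreated libraries, 3 of 9 members were higher and 0 lower, where 4.57% of the genes tested were called and 2.07% were higher. PCK2 differed by 0.65 (SE 0.05, edgeR adjusted p = 2.49e-09) and GPT2 by 0.46 (SE 0.05, edgeR adjusted p = 2.41e-07), next to ASNS above. The libraries of 4 members were all higher at 100 than at 10 µM, PYCR1 being the other, and those of GLUD1 all lower, as for 12.1% and 13.6% of the genes tested. Over all genes 740 were called, and 264, 398, 300, 489 and 388 without 10 µM replicates 1 and 3 and 100 µM replicates 1, 2 and 3 in turn, with the count of members at 3 each time.

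**Figure D4:**
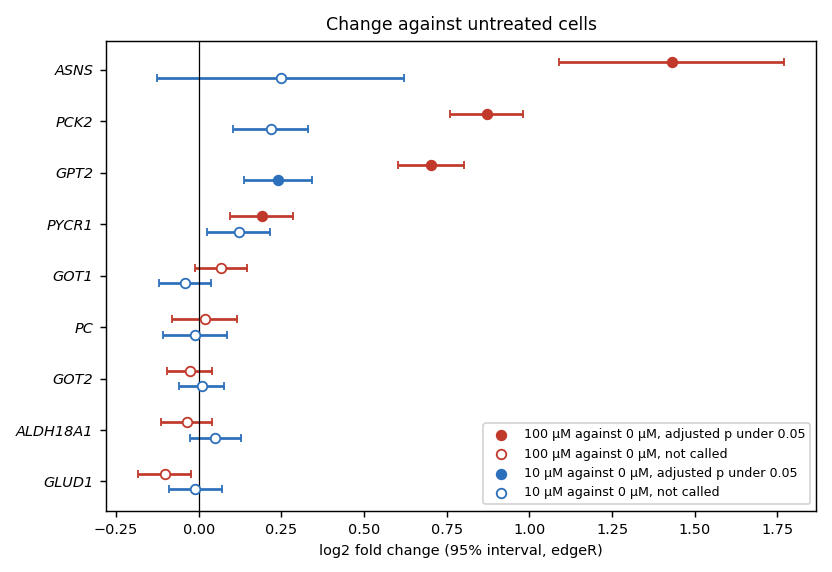
Log2 fold change of the 9 genes against untreated cells at 100 µM (upper of each pair) and 10 µM (lower), with 95% intervals from edgeR; filled points passed an adjusted p of 0.05. At 100 µM ASNS, PCK2, GPT2 and PYCR1 are filled, at 1.43, 0.87, 0.70 and 0.19.

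Over the dose series, the F-test across the 7 groups called ASNS, GPT2 and PCK2 (edgeR adjusted p = 1.53e-07, 1.73e-11 and 2.98e-12), where 4.35% of the genes tested were called, and did not call PYCR1 (adjusted p = 0.13). PYCR1 was called in that test with DESeq2 (adjusted p = 0.049), with no filter on low counts (adjusted p = 0.0278), without 0.001 µM replicate 3 (adjusted p = 0.0199) and without 0.1 µM replicate 1 (adjusted p = 0.044). The slope over log10 dose among the 18 treated libraries was called for the same 3 genes, where 4.45% of the genes tested were called and 1.94% rose. It was 0.26 log2 units per 10-fold step for ASNS (SE 0.03), 0.13 for PCK2 (SE 0.01) and 0.12 for GPT2 (SE 0.01), with edgeR adjusted p = 3.81e-07, 2.93e-11 and 5.27e-11. For PYCR1 the slope was 0.02 (edgeR adjusted p = 0.099), called with an offset for gene length (adjusted p = 0.0465) and without 0.001 µM replicate 3 (adjusted p = 0.0087). The means given above show that the slopes rest on the upper doses. At 0.001, 0.01, 0.1 and 1 µM, 0 of 9 members were called by edgeR, where 0%, 0.00617%, 0.00617% and 0% of all genes were called and 1364, 1427, 1015 and 633 genes had an unadjusted p under 0.05. DESeq2 and limma also called 0 members at these doses. Among members, only GLUD1 at 0.01 µM had an unadjusted p under 0.05 there (0.0208; log2 fold change -0.10, adjusted p = 0.54).

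Other genes of the same pathways, 77 in 7 lists, were read in the same way. Of the 63 that were tested, 2 were higher at 100 µM than in untreated cells, 3 were lower and 58 were not called, near the share over all genes tested (8.47% called, 3.66% higher and 4.8% lower). Their median log2 fold change was -0.02, with a range of -0.30 to 0.41, against a median of 0.00 over all genes. At 10 µM 0 of 63 were called, where 0.327% of all genes were. Between 100 and 10 µM, 0 of 63 were higher and 2 were lower, against 2.07% and 2.49% of all genes, and the slope over dose was called higher for 1 and lower for 2, against 1.94% and 2.51%.

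In the aspartate and asparagine list, 2 of 9 tested genes were higher, where 3.66% of all genes were, and both act in arginine synthesis from aspartate. ASS1, argininosuccinate synthase, which joins citrulline and aspartate, had 149.5 ± 5.55 CPM at 100 µM and 127 ± 4.27 CPM in untreated cells (SD, n = 3 each), a log2 fold change of 0.23 with SE 0.05 (edgeR adjusted p = 0.00141). ASL, which cleaves argininosuccinate, had 17.9 ± 0.444 CPM at 100 µM and 15.2 ± 0.443 CPM in untreated cells (log2 fold change 0.24, SE 0.07, edgeR adjusted p = 0.0321). The ASS1 call held without each library and under all alternatives. That of ASL ended without untreated replicate 1 or 2 (adjusted p = 0.117 and 0.101), without 100 µM replicate 1, 2 or 3 (adjusted p = 0.0598, 0.0926 and 0.0887), and with limma (adjusted p = 0.0528).

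The 3 genes lower at 100 µM than in untreated cells lie in other lists, where 4.8% of all genes tested were lower. GLUL, glutamine synthetase, had 44.6 ± 0.834 CPM at 100 µM and 49.99 ± 2.32 CPM in untreated cells (SD, n = 3 each; log2 fold change -0.16, edgeR adjusted p = 0.0127), 1 of 6 tested genes of the glutamate and glutamine list. SLC25A13, a mitochondrial aspartate-glutamate carrier, had 83.6 ± 1.16 CPM at 100 µM and 93.1 ± 1.87 CPM in untreated cells (log2 fold change -0.16, edgeR adjusted p = 0.00753), 1 of 11 carriers. PDHB, a subunit of pyruvate dehydrogenase, had 109 ± 2.43 CPM at 100 µM and 118 ± 4.65 CPM in untreated cells (log2 fold change -0.12, edgeR adjusted p = 0.0482), 1 of 23 genes of the TCA cycle and pyruvate dehydrogenase. Of these, the SLC25A13 call held without each library and under all alternatives, and that of GLUL ended without untreated replicate 1 (adjusted p = 0.112), without 100 µM replicate 1 (adjusted p = 0.0697), with no filter (adjusted p = 0.0531) and with a length offset (adjusted p = 0.0504). The PDHB call ended without any 1 of 14 of the 21 libraries, most of all untreated replicate 1 (adjusted p = 0.228), and under 6 of 9 alternatives. In the lists of proline metabolism (5 tested beside the members), of anaplerosis and phosphoenolpyruvate (9 tested) and of alanine (1 tested), 0 were called at 100 µM against untreated cells. The 2 genes lower at 100 than at 10 µM were PDHB (log2 fold change -0.15, edgeR adjusted p = 0.025) and SDHB, a subunit of succinate dehydrogenase (-0.13, edgeR adjusted p = 0.0488), which was chosen after its values were seen. The SDHB call ended under 4 of 9 alternatives and without any 1 of 17 of the 21 libraries, the highest adjusted p being 0.213 without 10 µM replicate 1, and that of PDHB without any 1 of 5, each 10 µM library and 100 µM replicates 2 and 3 (adjusted p = 0.101, 0.052, 0.0696, 0.0759 and 0.111). The 2 genes with a falling slope were GLUL and PDHB, at -0.03 log2 units per 10-fold step each (edgeR adjusted p = 0.0106 and 0.013), and the PDHB slope was not called without 0.001 µM replicate 3 (adjusted p = 0.0768) or 100 µM replicate 3 (adjusted p = 0.0591).

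**Figure D5:**
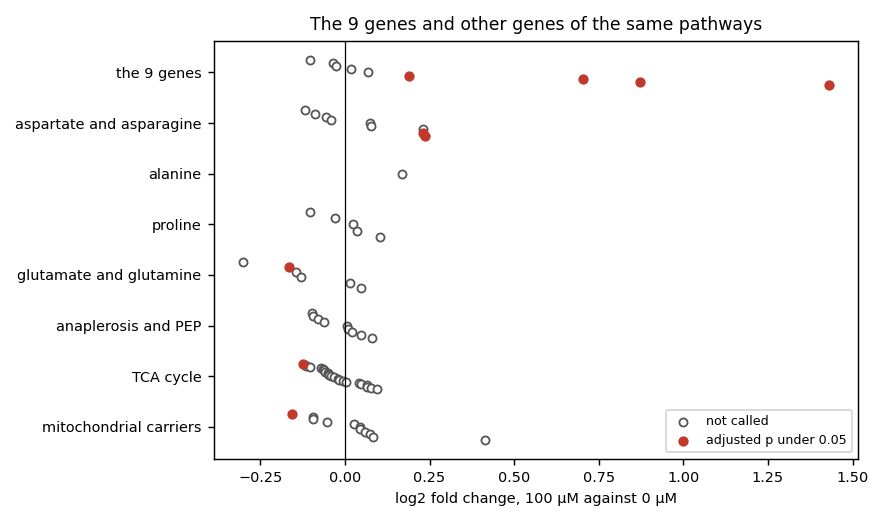
Log2 fold change at 100 µM against untreated cells of the 9 genes and of the other tested genes in 7 lists; each point is a gene, filled where the adjusted p was under 0.05, and its height within a row only spreads the points. The 4 filled members reach 1.43, and the other lists hold 2 filled points above 0 and 3 below it.

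For the 4 members called at 100 µM, the genes with the most similar dose profile were taken by the smallest root mean square difference of the 6 log2 fold changes against untreated cells, among 11630 other genes whose log2 CPM averaged 1 or more. For ASNS these were SESN2 (0.108), INHBE (0.200), STC2 (0.208), ATF3 (0.232) and DDIT3 (0.241). PCK2 was nearest to TRIB3 (0.0342), PMAIP1 (0.0478), HOXB9 (0.0501), HIST1H2AC (0.0516) and NUPR1 (0.0549), and GPT2 to HIST1H4H (0.0412), CEBPB (0.0571), HIST1H2AC (0.0591), CARS (0.0610) and HIST1H2BC (0.0623). Within 0.1 of the profile lay 0 genes for ASNS, 10 for PCK2, 17 for GPT2 and 3877 for PYCR1. These counts depend on the size of the changes. Those of PYCR1 were at most 0.19, so genes that barely changed lie near it, and the count does not show a shared profile. The genes nearest to PYCR1 were NGRN, WARS, HSPBP1, HSF1 and ARRDC1-AS1, the last of which was not called at 100 µM. All profiles share the same untreated libraries.

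Gene length was related to counts to a different degree in the groups. The slope of a library's log2 CPM, relative to the mean of all libraries, on log2 gene length was -0.0085 to -0.0069 at 100 µM and -0.0013 to 0.0144 in untreated cells. With an offset for gene length the same count of 4 members was called at 100 µM.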

How the data were processed

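The authors deposited a table of whole-number counts per gene, with no normalization, and a table of FPKM, both with 21 library columns. The submitters' processing notes name HISAT2, DESeq2 and GRCh38, with no step given for any of them; which tool counted reads, and whether by strand, is not given in the sources used here. Gene IDs, coordinates and strands of all 58735 genes equal those of GENCODE 29, and the deposited FPKM equal counts divided by gene length and a constant per library (0.948 to 1.00 times the library total; largest relative deviation 3.95e-08 at 20 counts or more). Libraries were grouped by their titles.

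From the deposited counts, genes passing filterByExpr were kept, TMM factors were computed, and the genes were fitted in edgeR 4.0.16 (R 4.3.3) as 1 quasi-likelihood model with 14 residual degrees of freedom; the steps were first tested on simulated counts. A standard error is the log2 fold change over the root of its F value. CPM of tested genes are per 1000000 counts in tested genes; 3 counts equal at most 0.107 CPM per library total (counting error only). No replicates were duplicates: a chi-square test of their counts gave 2.74 to 12.8 per degree of freedom. Alternatives were DESeq2 1.42.0, its size factors, limma 3.58.1 on log2(FPKM + 1) and log2(FPKM + 0.1), other filters, the replicate number as a block, only the groups compared, a length offset and each library left out.

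The members, lists and tests were chosen with earlier results of these data known. All 9 members are named; of the pathway lists, genes called at 100 µM (up to 4 a list) and 5 isoenzymes or relatives (PYCR3, GLUD2, GPT, PCK1 and ASNSD1). A further gene and a ratio with it are not reported here. Cell type lists are summed. Promoter sequences are from RefSeq (GRCh38.p14). Figures were drawn with matplotlib 3.10.9.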

Additional observations from a re-analysis of the deposited data

How the results depend on the processing

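The calls of ASNS, GPT2 and PCK2 at 100 µM held under all 9 alternatives and with each of the 21 libraries left out, with log2 fold changes of 0.63 to 1.66, 0.63 to 0.73 and 0.80 to 0.89; that of PYCR1 held except without untreated replicate 2. No member called at 100 µM changed direction. At 10 µM the count of members called was 2 with DESeq2 and with no filter on low counts, 0 with limma on log2(FPKM + 1) or log2(FPKM + 0.1), and 0 to 2 with a library left out.

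Counts over all genes moved more. At 10 µM they were 155 with DESeq2 (98 higher, 57 lower, against 39 and 14 with edgeR), 17 and 27 with limma, 379 with no filter, and 7 to 162 with a library left out. With no filter, 66, 54, 66 and 41 genes were called at 0.001, 0.01, 0.1 and 1 µM. DESeq2 called 1 at 1 µM, limma 2 at 0.01 µM with either pseudocount, and fits of only the groups compared 2 at 0.1 µM and 3 at 0.01 µM. Without untreated replicate 2, 10 µM replicate 3 and 0.1 µM replicate 1 the count at 10 µM was 7, 9 and 162. The 7-group count was 1139 with DESeq2 and 1519 with no filter. With a library left out the counts were 705 to 1775 at 100 µM, 264 to 950 for 100 against 10 µM, 349 to 1053 for the 7 groups, 470 to 819 for the slope and 1 to 2 at 0.01 µM, and the difference in the log2 ratio of GOT2 to GOT1 was -0.1318 to -0.06971. Limma on log2(FPKM + 0.1) made 246 calls higher and 452 lower for 100 against 10 µM, against 336 and 404 with edgeR. Without 100 µM replicates 1, 2 and 3 in turn the 7-group count was 349, 381 and 368, and the slope count was 470 without 0.001 µM replicate 2 and 472 without 100 µM replicate 2. The cause of these shifts was not tested.

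With the replicate block, 1318 genes and 4 members were called at 100 µM and 75 genes and 1 member at 10 µM. The numbers were not taken as pairs: same-numbered libraries had correlations of their deviations from -0.30 to 0.32, over 0.1 in 5 of 21 pairs, and 8 of 21 libraries correlated best with their own number. The block changed no member's call. Depth limits GPT, GLUD2 and, at lower doses, ASNS.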
